A study of Arabidopsis thaliana with 18 samples.

Results

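Dark-grown Arabidopsis thaliana seedlings with 8 h of light were compared with seedlings with 4 h of light, over all genes and in both directions. The comparison used 6 of the 18 libraries of the series, 3 at 8 h and 3 at 4 h, and tested 20569 of the 24951 genes listed in any library. All libraries came from whole wild type seedlings kept for 7 days in the dark, which leaves a seedling pale and elongated (etiolated), and then given light for 0, 1, 2, 4, 8 or 12 h. PolyA RNA was sequenced with a BGISEQ-500 library protocol. The ecotype, the light source and the growth medium are not given in the sources used here. There was no dark control of matching age, so that 4 more hours of light, 4 more hours of age and a later time of day cannot be told apart. The labels do not say whether the libraries of a group came from separate cultures, so the p-values measure the spread between these samples, which may be technical.

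When an etiolated seedling meets light, photoreceptors remove the repressors of photomorphogenesis, growth of the hypocotyl slows, and etioplasts become chloroplasts. Nuclear genes supply most of the proteins of the new chloroplast, including its ribosomes, its carbon fixing enzymes and much of its electron transport chain, while the plastid genome codes for the rest. Light also sets the circadian clock, and the sudden onset of photosynthesis brings excess excitation energy, reactive oxygen and protein damage that chaperones and antioxidant enzymes counter.

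Summed expected counts (estimated reads per gene, which need not be whole) lay between 20072451 in 8 h replicate 3 and 22658449 in 8 h replicate 1. Log2 CPM values (counts scaled to a common library size by TMM) correlated across genes at 0.9711 to 0.9885 between 8 h libraries, at 0.9803 to 0.9881 between 4 h libraries, and at 0.9545 to 0.9750 between the groups. Library 8 h replicate 2 stood somewhat apart from the other 8 h libraries. It was the lowest of the 3 in 314 of the 391 genes called higher at 8 h, and its summed root marker level was 457 FPKM, against 223 and 191 FPKM in 8 h replicates 1 and 3 and 289, 155 and 274 FPKM in the 4 h libraries. The part of that library in the results was measured by leaving it out, and those values are given beside the counts it moved.

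A gene was called where edgeR's quasi-likelihood test gave a Benjamini-Hochberg adjusted p under 0.05 and the log2 fold change, 8 h over 4 h, was at least 1 in size. By this rule 734 genes (3.57% of those tested) were called, 391 higher (1.9%) and 343 lower (1.67%) at 8 h. The changes were mostly modest on the higher side, where the median log2 fold change was 1.23 and 30 genes reached 2. They were larger on the lower side, where the median was -1.55 and 106 genes reached -2. The median over all genes tested was 0.02. FPKM values (levels scaled to gene length and library depth) of the groups did not overlap in 721 of the 734, against 35.7% of all genes tested. With library size alone as the scaling, 294 genes were higher and 428 lower, so the share of calls that were higher was 40.7% in place of 53.3%. The count of higher genes rested on single libraries: leaving out 8 h replicate 2 gave 596, 8 h replicate 3 gave 221, 8 h replicate 1 gave 198, 4 h replicate 3 gave 187 and 4 h replicate 1 gave 245. The count of lower genes was 191 without 8 h replicate 1, 210 without 8 h replicate 3 and 226 without 4 h replicate 2. No called gene changed its sign when any library was left out.

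**Figure D1:**
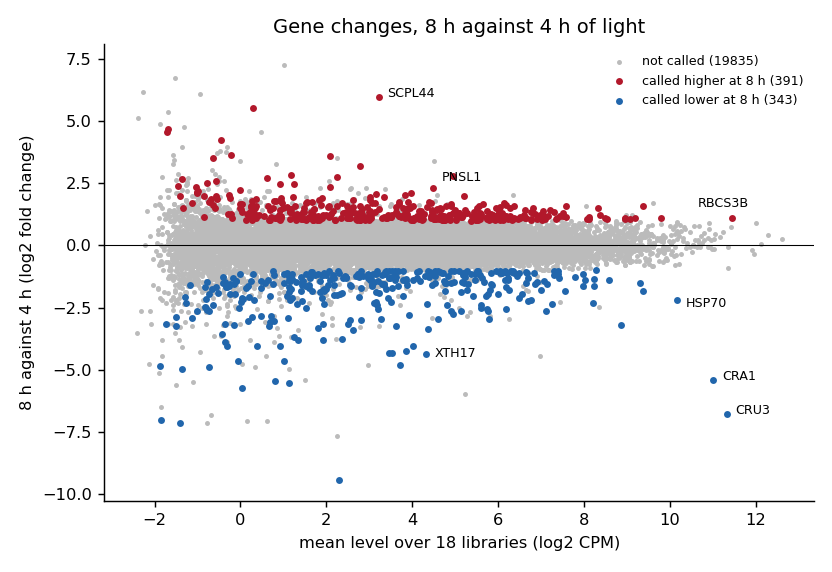
Each point is a gene, with its mean level over the 18 libraries on the horizontal axis (log2 CPM) and its log2 fold change, 8 h over 4 h, on the vertical axis. The 391 genes called higher are red and the 343 called lower blue; the lower side reaches further from 0, with the seed storage genes CRU3 and CRA1 far down at high level.

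Genes of the chloroplast made up much of what rose. Of the 391 genes called higher, 197 (50.4%) carried a plastid, chloroplast or thylakoid term in the cellular component field of the deposited tables, against 20 of the 343 called lower (5.83%) and 11.4% of all genes tested. The genes that fell included chaperones of the heat shock response, seed storage genes, glutathione transferases and cell wall genes. The annotation response to heat stood at none of the genes called higher, at 18 of those called lower (5.25%) and at 0.763% of all genes tested. In whole seedlings, a change in the number of cells of a type and a change in RNA per cell cannot be told apart.

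The chloroplast NADH dehydrogenase-like (NDH) complex carries cyclic electron flow around photosystem I, and many of its nuclear subunits rose. Of 17 subunits tested, 9 were called higher and 0 lower. Over all genes tested, 1.9% were called higher and 1.67% lower, the shares to set beside each list count below. All 17 subunits had a log2 fold change above 0, against 51.7% of all genes tested, with a median of 1.11 against 0.02 over all genes. PNSL1, a lumen subunit, had 52.8, 33.2 and 52.1 FPKM at 8 h, against 7.48, 10.3 and 11.1 FPKM at 4 h. It rose by 2.32 ± 0.47 (log2, SE, n = 3 libraries each; edgeR adjusted p = 0.00586). NDHL, a membrane subunit, had 118, 79.0 and 101 FPKM at 8 h, against 24.3, 29.2 and 24.96 FPKM at 4 h. The 8 h libraries of both genes lay far above every 4 h library, although both genes overlap another listed locus and had mostly fractional counts, which makes their levels uncertain. PNSB4, a subunit with mostly whole counts that also overlaps another locus, had 71.2, 47.1 and 77.8 FPKM at 8 h, against 23.8, 28.2 and 22.5 FPKM at 4 h, and rose by 1.42 ± 0.19 (edgeR adjusted p = 0.0005). PNSL4, an FK506-binding immunophilin of the lumen that overlaps no listed locus, rose by 1.58 ± 0.33 (adjusted p = 0.00685). PNSL2, PNSB5, NDHN, NDHO and NDHU rose by 1.08 to 1.43. PNSL3 moved least, at 27.0, 15.9 and 26.2 FPKM at 8 h, against 18.7, 20.01 and 17.4 FPKM at 4 h, and its groups overlapped (log2 fold change 0.37, adjusted p = 0.512). The number of subunits called was 5 without 8 h replicate 1 or without 4 h replicate 3.

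Many genes for the ribosome of the chloroplast rose. Of 32 nuclear genes of plastid ribosomal proteins tested, 15 were called higher (1.9% of all genes tested were) and 0 lower. Of the 32, 31 were above 0, and the median log2 fold change of the list was 1.00 with a largest value of 1.41. RPL15, a large subunit protein, had 258, 153 and 258 FPKM at 8 h, against 84.5, 101 and 78.1 FPKM at 4 h. It rose by 1.41 ± 0.27 (edgeR adjusted p = 0.00492), and it overlaps another locus. The ribosomal L6 family gene emb2394 had 331, 246 and 325 FPKM at 8 h, against 143, 151 and 124 FPKM at 4 h, and rose by 1.18 ± 0.19 (adjusted p = 0.00175). In each of these genes the lowest 8 h library was replicate 2, which still lay above all 4 h libraries. Leaving out 8 h replicate 2 raised the count to 23, and leaving out 8 h replicate 1 or 4 h replicate 3 lowered it to 8. The 168 cytosolic ribosomal protein genes tested had a median log2 fold change of 0.53, with 161 above 0 and 1 past the adjusted p alone in each direction. None of them was called by edgeR, DESeq2 or limma-voom, and at an unadjusted p under 0.05 in edgeR's test 40 were higher and 2 lower. How many of all genes tested passed that unadjusted cut was not counted, here or for the lists below. By the adjusted p alone, 6.57% of all genes tested were higher and 4.85% lower. The cytosolic list summed to 11982, 8233 and 18688 FPKM at 8 h, against 9041, 11091 and 8377 FPKM at 4 h, so the groups overlapped. The plastid and cytosolic lists were made from annotation words and are approximate.

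The I-box core, GATAAG on either strand, is a promoter element of many light-regulated photosynthesis genes. In the 300 bases before the start codon it was present in 11 of the 15 plastid ribosomal protein genes called higher (73.3%) and in 5 of the 9 NDH genes called higher (55.6%). The share was 30.5% of all genes called higher, 14.0% of those called lower and 16.0% of all genes tested. In the 250 bases before the annotated gene start, the shares were 26.7% of those plastid ribosomal protein genes, 11.1% of those NDH genes, 16.7% of the genes called higher, 9.62% of those called lower and 12.5% of all genes tested, so the shares depended on the window. The following 30-base stretches, read from the RefSeq genome TAIR10.1 on the strand of the gene with the I-box in capitals, show such matches close to the start codon of 2 ribosomal and 2 NDH genes. All 4 lie inside the annotated gene, downstream of its start (the motif begins 55, 26, 18 and 214 bases after it in the order below), so they are not in the stretch before the gene. The median distance between gene start and start codon was 100 bases in the plastid ribosomal protein genes called higher and 115 in the NDH genes called higher, against 205 in all genes tested, introns included. A match describes the letters in the window and was not tested as a binding site. No motif was counted separately in the members of these lists that were not called. A trait of the whole family therefore cannot be told apart from one of its called genes.
RPL15: atcttcctcaacCTTATCcttgaagctttg
emb2394: aagctgacgatgGATAAGtcttttctggat
NDHL: ccaatctcaagaGATAAGgaaacttcacaa
PNSL4: tggcttcacgcaGATAAGgaagcagagatc

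The first of these lies at chr3:9492583-9492612 (minus strand), 42 bases before the start codon as counted from the first base of the motif. The emb2394 match lies at chr1:1503810-1503839 (minus strand, 89 bases before), the NDHL match at chr1:26687208-26687237 (plus strand, 47 bases before) and the PNSL4 match at chr4:18428347-18428376 (minus strand, 39 bases before). The site II element GGCCCA, known from promoters of ribosomal protein and other housekeeping genes, stood in the 300 bases before the start codon of 8 of the 15 plastid ribosomal protein genes called higher (53.3%), against 13.1% of all genes tested, and before the gene start of 46.7%, against 16.1%. It was also in 42.1% and 52.6% of the heat shock and HSP20-like genes called lower in the same 2 windows, so it was not limited to genes that rose.

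Some genes of the machinery that transcribes the plastid genome, and some of its transcripts, rose. Of 18 nuclear genes of the plastid-encoded RNA polymerase and its associated proteins, a list drawn up after the values had been seen, 6 were called higher and 0 lower, with a median log2 fold change of 0.80. MRL7, a nucleoid protein needed for that polymerase, had 9.87, 5.27 and 13.0 FPKM at 8 h, against 2.66, 4.24 and 2.79 FPKM at 4 h. PRIN2, another regulator of the polymerase, had 40.7, 28.6 and 48.6 FPKM at 8 h, against 16.4, 18 and 12.6 FPKM at 4 h, and rose by 1.34 ± 0.19 (edgeR adjusted p = 0.000629). FLN2, a fructokinase-like partner of the polymerase, rose by 1.301 ± 0.37 (adjusted p = 0.0323). That count fell to 1 without either 8 h replicate 1, 8 h replicate 3, 4 h replicate 1 or 4 h replicate 3. None of the 6 plastid sigma factors, which direct the polymerase to promoters, was called by edgeR, DESeq2 or limma-voom, with 1 higher and 1 lower at an unadjusted p under 0.05 in edgeR's test and a median of 0.14. SIG5, the light-responsive one, had 158, 193 and 129 FPKM at 8 h, against 266, 239 and 298 FPKM at 4 h, below the fold limit of the call (log2 fold change -0.67, adjusted p = 0.0364; 4.85% of all genes tested were lower by the adjusted p alone). Of 60 transcripts of the plastid genome tested, 7 were called higher (1.9% of all genes tested were) and 0 lower, with a median of 0.81. PSBC, the photosystem II protein CP43, had 11.3, 5.95 and 10.2 FPKM at 8 h, against 3.03, 3.89 and 3.43 FPKM at 4 h (log2 fold change 1.47 ± 0.28, adjusted p = 0.00405). Plastid messages mostly lack polyA tails, so these values count the small part that the polyA protocol kept. Leaving out 8 h replicate 2 gave a count of 17, and it was 1 without either 8 h replicate 1, 8 h replicate 3 or 4 h replicate 1.

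Enzymes of carbon fixation and photorespiration were among the genes that rose. All 20 Calvin cycle genes tested were above 0, with a median of 0.80; 4 were called higher, and 12 passed the adjusted p alone with a higher level (6.57% of all genes tested did). RBCS3B, a small subunit of Rubisco with near-identical copies, had 5771, 3952 and 5857 FPKM at 8 h, against 2748, 2804 and 1995 FPKM at 4 h, the largest gain in FPKM of any called gene. It rose by 1.11 ± 0.28 (edgeR adjusted p = 0.0175), with mostly fractional counts. RPE, the epimerase of the regeneration phase, had 514, 369 and 472 FPKM at 8 h, against 219, 240 and 214 FPKM at 4 h (log2 fold change 1.08 ± 0.16, adjusted p = 0.000826). PGK1 (phosphoglycerate kinase) and GAPB (a subunit of the chloroplast glyceraldehyde-3-phosphate dehydrogenase) rose by 1.23 and 1.07. Leaving out 8 h replicate 1 brought the Calvin cycle count to 1, and leaving out 8 h replicate 3 or 4 h replicate 3 brought it to 2.

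Of 14 photorespiration genes, 4 were called higher and 0 lower, with a median of 0.76. GDCH, the H protein of mitochondrial glycine decarboxylase, had 177, 121 and 170 FPKM at 8 h, against 44.9, 60.5 and 54.2 FPKM at 4 h, and rose by 1.62 ± 0.34 (edgeR adjusted p = 0.00719). SHM1, the serine hydroxymethyltransferase that acts beside it, rose by 1.09 ± 0.20 (adjusted p = 0.00374), and GS2, the plastid glutamine synthetase that takes up the released ammonium, by 1.06 ± 0.23 (adjusted p = 0.00884). PGLP1 was also called, but it has a near-identical duplicate locus and its value is uncertain. This count was 2 without 4 h replicate 3.

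Light-harvesting and photosystem genes had smaller medians than these lists. No gene in the lists of the photosystem II core (11 tested), the photosystem I core (12), the LHCII antenna (15) or the LHCI antenna (6) was called in edgeR's test, in either direction. The photosystem II core list leaves out the plastid-encoded PSBC and PSBD. Both were called higher among the plastid genome transcripts (log2 fold changes 1.47 and 1.469). Past the adjusted p alone were 3 photosystem II core genes, 2 photosystem I core genes and 1 LHCI gene, all higher. At an unadjusted p under 0.05 there were 7, 3 and 1 higher and none lower in these lists, and 2 higher and 1 lower in LHCII. DESeq2 and limma-voom called none of them either, apart from 1 LHCII gene that DESeq2 called lower. The median log2 fold changes were 0.57 in the photosystem II core, 0.40 in the photosystem I core, 0.18 in LHCII and 0.25 in LHCI. Summed over the LHCII genes, the libraries held 10126, 7356 and 10221 FPKM at 8 h, against 9111, 9456 and 7944 FPKM at 4 h, so the groups overlapped. LHCB2.2, a trimeric LHCII protein, lay the other way from most, at 135, 73.0 and 138 FPKM at 8 h, against 389, 421 and 333 FPKM at 4 h (log2 fold change -1.66, adjusted p = 0.055, mostly fractional counts). FNR2, the ferredoxin-NADP reductase, was the single called gene among 12 electron carriers and ATP synthase subunits, with 200, 133 and 207 FPKM at 8 h, against 79.2, 88.4 and 74.8 FPKM at 4 h (log2 fold change 1.19 ± 0.24, adjusted p = 0.00568). In the chlorophyll pathway 1 of 23 genes was called, DVR, the divinyl reductase, at 36.2, 18.9 and 39.1 FPKM at 8 h, against 9.94, 12.0 and 11.1 FPKM at 4 h. LUT5, a carotene hydroxylase, was the called gene of 14 in the carotenoid and MEP pathway list.

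**Figure D2:**
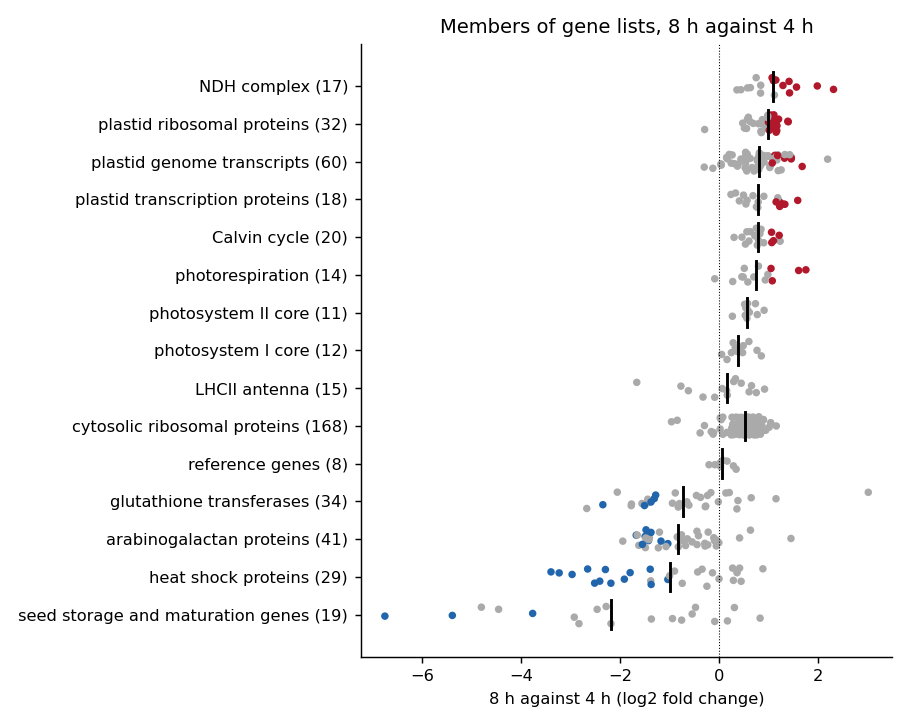
Each point is a tested gene of the list named at the left (number tested in parentheses), placed by its log2 fold change, 8 h over 4 h; red and blue points were called higher and lower, grey ones were not called, the bars are list medians and the dotted line is the median of all genes. Chloroplast lists other than the LHCII antenna lie to the right with few or no members below 0. The LHCII antenna lies nearer to 0, with 10 of its 15 genes above it. The heat shock, glutathione transferase, arabinogalactan and seed lists lie to the left.

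Several antioxidant enzymes of the chloroplast rose. FSD2, an iron superoxide dismutase of the nucleoid, had 18.7, 14.2 and 21.3 FPKM at 8 h, against 5.42, 6.02 and 6.28 FPKM at 4 h, and rose by 1.66 ± 0.25 (edgeR adjusted p = 0.00104). Its partner FSD3 and the copper/zinc enzyme CSD2 rose by 1.26 and 1.16. These 3 were the called genes of 16 in the photoprotection and antioxidant list, where 12 were above 0. Past the adjusted p alone were 5 higher and 1 lower, against 6.57% and 4.85% of all genes tested. The list as a whole summed to 2031, 1990 and 1935 FPKM at 8 h, slightly below the 2115, 2140 and 2049 FPKM at 4 h. GPX1, a chloroplast glutathione peroxidase, had 576, 439 and 531 FPKM at 8 h, against 256, 255 and 244 FPKM at 4 h, one of the 6 largest gains in FPKM. NEET, an iron-sulfur protein, had 32.2, 26.2 and 31.7 FPKM at 8 h, against 7.54, 9.68 and 7.61 FPKM at 4 h, and rose by 1.93 ± 0.30 (adjusted p = 0.00123).

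The largest rises outside these lists were in genes with varied roles. SCPL44, a serine carboxypeptidase-like protein, had 15.3, 7.60 and 35.3 FPKM at 8 h, against 0.03, 0.74 and 0.19 FPKM at 4 h. Its groups did not overlap, but the 8 h libraries were wide apart (log2 fold change 5.96 ± 1.72, edgeR adjusted p = 0.0357). SCPL20, of the same family, had 35.8, 23.4 and 68.4 FPKM at 8 h, against 5.13, 6.08 and 8.16 FPKM at 4 h (log2 fold change 2.81 ± 0.51, adjusted p = 0.00323). Others of the 12 highest were plastid proteins: the fibrillin-like AT1G51110 rose by 2.12 ± 0.35 (adjusted p = 0.00185), and the fatty acid binding protein FAP3 by 1.93 ± 0.44 (adjusted p = 0.0118).

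Among 15 genes that respond to sugar starvation and darkness, 3 were called higher and 0 lower. SEN1, a dark-inducible senescence gene, had 625, 1028 and 490 FPKM at 8 h, against 263, 239 and 240 FPKM at 4 h, and rose by 1.58 ± 0.33 (edgeR adjusted p = 0.00699). BT2, a BTB and TAZ domain protein, had 809, 767 and 756 FPKM at 8 h, against 400, 332 and 403 FPKM at 4 h (log2 fold change 1.11 ± 0.23, adjusted p = 0.00714). DIN3, a subunit of the branched-chain keto acid dehydrogenase, rose by 1.07. In SEN1 and DIN3 the highest 8 h library was replicate 2, the library that was lowest in most chloroplast genes.

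Clock genes moved in both directions. Among 11 morning genes, 2 were called higher and 2 lower; among 12 evening genes, 1 was called higher and 0 lower. LHY, a MYB repressor of evening genes, had 21.7, 17.9 and 20.1 FPKM at 8 h, against 5.93, 6.95 and 8.82 FPKM at 4 h, and rose by 1.501 ± 0.22 (edgeR adjusted p = 0.000858). CCA1, its close relative and partner, had 27.6, 22.98 and 23.5 FPKM at 8 h, against 50.9, 43.4 and 63.1 FPKM at 4 h, and fell by 1.01 on the log2 scale (SE 0.20, adjusted p = 0.00609). The groups of both genes were apart, in opposite directions. RVE2, a related MYB gene, rose by 1.601 ± 0.32 (adjusted p = 0.00581), with 228, 203 and 222 FPKM at 8 h, against 69.4, 62.9 and 93.6 FPKM at 4 h. BOA, a homologue of the evening complex factor LUX, rose by 1.299 ± 0.26 (adjusted p = 0.00576). LNK2, a morning coactivator, fell by 1.00 on the log2 scale, right at the fold limit (adjusted p = 0.0205). PRR9, a morning repressor, had 12.1, 14.1 and 11.1 FPKM at 8 h, against 42.4, 41.3 and 55.0 FPKM at 4 h, with an adjusted p just past the threshold (log2 fold change -1.83, adjusted p = 0.0501). TOC1 and LUX were higher at 8 h past the adjusted p but below the fold limit, at 0.84 and 0.83, and GI was lower at -0.85. The evening element AAAATATCT, bound by these MYB proteins, stood in the 250 bases before the gene start of 20 of 384 genes called higher (5.21%), 4 of 343 called lower (1.17%) and 2.44% of all genes tested. In the 300 bases before the start codon the shares were 4.17%, 2.33% and 2.26%. The CCA1 binding site AAAAATCT, bound by the same proteins, was in 5.47% of genes called higher, 8.45% of those called lower and 6.78% of all genes tested before the gene start, and in 6.25%, 7.58% and 8.15% before the start codon. Shares of the G-box CACGTG, an element bound by light signalling factors, were 8.07%, 6.71% and 7.54% before the gene start and 11.5%, 7.0% and 7.22% before the start codon.

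In the list of 32 light signalling regulators, 1 gene was called in each direction, but most members lay lower at 8 h. Only 4 of the 32 were above 0 (list median -0.365). Past the adjusted p alone were 1 higher and 9 lower, against 6.57% and 4.85% of all genes tested. With an unadjusted p under 0.05 in edgeR's test, 1 was higher and 15 were lower. The summed level of the list was 1619, 1786 and 1570 FPKM at 8 h, against 2296, 2253 and 2274 FPKM at 4 h. BBX20, a B-box protein that promotes photomorphogenesis, had 16.4, 13.3 and 18.1 FPKM at 8 h, against 9.28, 8.43 and 6.29 FPKM at 4 h, and rose by 1.06 ± 0.24 (edgeR adjusted p = 0.0103). BBX28, a B-box protein that interferes with the light regulator HY5, had 28.5, 32.7 and 27.1 FPKM at 8 h, against 73.8, 76.1 and 69.0 FPKM at 4 h (log2 fold change -1.24 ± 0.34, adjusted p = 0.0297).

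**Figure D3:**
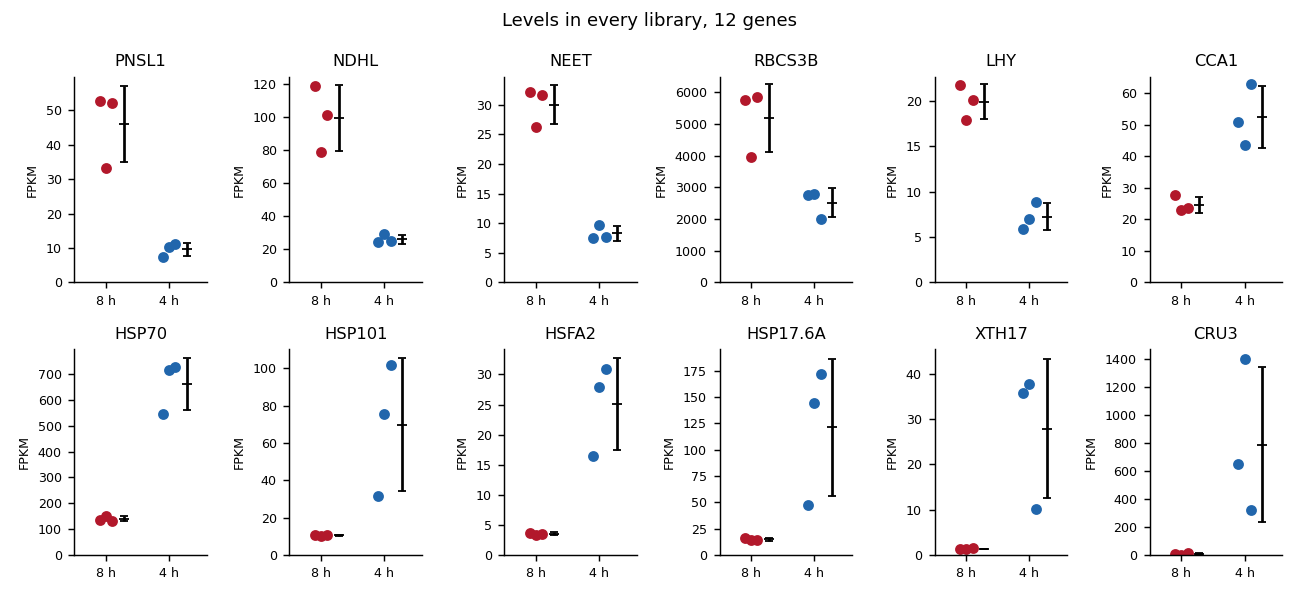
Level (FPKM, axes from 0) of 12 genes in every library, 8 h in red on the left and 4 h in blue on the right of each panel; the bar beside the points is the mean with its SD (n = 3). The first 5 genes lie higher at 8 h and the other 7 lower, and no panel has overlapping groups.

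Many heat shock genes fell. Of 29 heat shock proteins tested, 13 were called lower (1.67% of all genes tested were) and 0 higher, with a median log2 fold change of -0.99. Between 9 and 14 were called lower when a library was left out. HSP70 (AT3G12580), a cytosolic chaperone that stress induces, had 136, 150 and 132 FPKM at 8 h, against 547, 716 and 726 FPKM at 4 h. It fell by 2.18 on the log2 scale (SE 0.27, edgeR adjusted p = 0.000379). HSP101, the disaggregase needed for acquired thermotolerance, had 10.7, 10.3 and 10.7 FPKM at 8 h, against 31.4, 75.8 and 102 FPKM at 4 h (log2 fold change -2.65 ± 0.36, adjusted p = 0.000574). HSP17.6A, a small chaperone of class II, had 16.3, 13.7 and 14.3 FPKM at 8 h, against 47.8, 144 and 172 FPKM at 4 h (log2 fold change -2.97 ± 0.57, adjusted p = 0.00483). The 8 h libraries of these genes were nearly level. The 4 h libraries were wide apart in HSP101 and HSP17.6A and less so in HSP70, with 4 h replicate 1 the lowest in each. HSP23.6-MITO, a mitochondrial small chaperone, showed the same order at 4 h, with 2.00, 0.34 and 1.78 FPKM at 8 h, against 2.95, 20.8 and 21.7 FPKM at 4 h. HSP21, the chloroplast small chaperone, was called (log2 fold change -3.23, adjusted p = 0.0418) although its groups overlapped, with 0.87, 0.09 and 0.77 FPKM at 8 h, against 0.46, 5.90 and 10.7 FPKM at 4 h.

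A further list of 27 HSP20-like chaperones, drawn up after the values had been seen, held 6 genes called lower and 0 higher with a median of -0.06, so most of its members were not called. AT5G51440 had 18.8, 15.9 and 19.2 FPKM at 8 h, against 75.8, 140 and 119 FPKM at 4 h (log2 fold change -2.56 ± 0.29, edgeR adjusted p = 0.000222). HSFA2, the heat-inducible factor that sustains the heat response, was named after its values had been seen. It had 3.71, 3.34 and 3.53 FPKM at 8 h, against 16.5, 27.9 and 30.9 FPKM at 4 h, and fell by 2.77 on the log2 scale (SE 0.27, adjusted p = 0.000118). HSFA2 and HSFB3 were the called genes among 17 heat shock factors. The chaperones HSP90.1, HSP81-2 and HSP81-3, also named after their values had been seen, fell by 2.29, 1.37 and 1.38 on the log2 scale; HSP81-2 and HSP81-3 are near-identical copies with fractional counts. Over the 6 times, the summed level of the heat shock list averaged 1915 ± 234 FPKM (SD, n = 3) in the dark and 4611 ± 1019 FPKM after 1 h of light, then 3555 ± 782 FPKM after 2 h and 4361 ± 417 FPKM after 4 h. After 8 h it was 2426 ± 266 FPKM, and after 12 h 2329 ± 57.3 FPKM.

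The heat shock element, to which heat shock factors bind, is built of inverted repeats that read GAANNTTC or TTCNNGAA on either strand. In the 300 bases before the start codon, 16 of the 19 heat shock protein and HSP20-like genes called lower (84.2%) held at least 1 of these, against 30.3% of all genes called lower, 19.5% of those called higher and 23.3% of all genes tested. In the 250 bases before the annotated gene start, the shares were 21.1%, 20.1%, 14.6% and 15.8% in the same order. Here too, heat shock protein and HSP20-like genes that were not called were not counted separately. The window before the start codon was added after the first one had been seen to end upstream of the elements in most of these genes, and the element itself was added after the called genes had been seen. The 30-base stretches below, read as above with the element in capitals, show it in 5 of the genes whose values are given here.
HSP70: tctttactcgtGAACGTTCtcgaaagctct
HSP17.6A: gatcaagacgtTTCTCGAAcgttagagaag
HSP23.6-MITO: ccacttctccaGAACATTCactcactgaca
HSP21: aaacgagtcgaGAAACTTCgtatcaaatct
AT5G51440: agaccacgcagTTCTAGAAccatccttaag

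They lie at chr3:3993848-3993877 (minus strand), chr5:3884842-3884871 (minus strand), chr4:12916928-12916957 (plus strand), chr4:13820053-13820082 (minus strand) and chr5:20891058-20891087 (plus strand), with the first base of the element 177, 176, 150, 176 and 173 bases before the start codon. The element begins 20 and 13 bases inside the annotated gene in HSP70 and HSP23.6-MITO and upstream of its start in the other 3. No match to either form was recorded for HSP101 in that window. Matches close to the edges of the window were not recorded, so this does not show that the letters are absent.

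The deepest falls at high level were in seed storage genes. CRU3, a cruciferin (the 12S globulin of the seed), had 5.06, 1.09 and 15.1 FPKM at 8 h, against 649, 1401 and 320 FPKM at 4 h, and fell by 6.75 on the log2 scale (SE 1.11, edgeR adjusted p = 0.00177). CRA1, another cruciferin, had 6.16, 6.86 and 21.2 FPKM at 8 h, against 505, 810 and 170 FPKM at 4 h (log2 fold change -5.39 ± 1.11, adjusted p = 0.00679). M10, a late embryogenesis abundant protein, had 0.46, 0.31 and 0.86 FPKM at 8 h, against 6.66, 12.2 and 4.22 FPKM at 4 h (log2 fold change -3.76 ± 0.78, adjusted p = 0.00678). These 3 were the called genes of 19 tested in a list of seed storage and maturation genes drawn up after the values had been seen, whose median was -2.18. Their libraries differed widely within each time: the list summed to 138, 283 and 174 FPKM at 8 h and 1718, 3004 and 707 FPKM at 4 h, but to 2298, 979 and 15962 FPKM in the dark. With only the 6 libraries of the comparison in the fit, 8 of the 19 were called lower. OLEO1, an oleosin of the oil body, had 1.88, 3.12 and 3.35 FPKM at 8 h, against 22.1, 32.5 and 7.57 FPKM at 4 h, without passing the test (log2 fold change -2.83, adjusted p = 0.122), and ECP63 of the same list lay at 0.32. The RY element CATGCA, known from seed gene promoters and counted after the called genes had been seen, stood in the 300 bases before the start codon in 9.91% of genes called lower, 4.43% of those called higher and 7.14% of all genes tested, and in the 250 bases before the gene start in 12.5%, 7.03% and 7.85%. The element was not counted separately in the seed list. In the window before the start codon it was also found in genes outside that list, among them MYB75 and ELI3-2, which fell, and BOA, which rose. No match was recorded for M10, though matches close to the edges of the window were not recorded. Both cruciferins hold the element, shown in capitals below.
CRU3: gactgaagtcccCATGCAaacctaatccta
CRA1: acttgaataagcCATGCAaattgaaatgtg

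The CRU3 stretch is chr4:14087475-14087504 (plus strand) and the CRA1 stretch chr5:17758483-17758512 (minus strand), 109 and 254 bases before the start codon.

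Genes of detoxification and of the cell wall were also among those that fell. Of 34 glutathione transferases, listed after the values had been seen, 5 were called lower (1.67% of all genes tested were) and 0 higher, with a median of -0.72. GSTF8, a stress-responsive member, had 225, 201 and 199 FPKM at 8 h, against 529, 644 and 685 FPKM at 4 h, and fell by 1.501 on the log2 scale (SE 0.21, edgeR adjusted p = 0.000624). GSTF2, an auxin-binding member, had 20, 35.7 and 17.3 FPKM at 8 h, against 131, 176 and 84.0 FPKM at 4 h. Of 41 arabinogalactan proteins, proteoglycans of the cell surface also listed later, 9 were called lower and 0 higher, with a median of -0.82. AGP2 had 38.6, 27.8 and 42.8 FPKM at 8 h, against 102, 125 and 90.2 FPKM at 4 h (log2 fold change -1.47 ± 0.19, adjusted p = 0.000485). The arabinogalactan count was 4 without 8 h replicate 1 or 8 h replicate 3 and 5 without 4 h replicate 1 or 4 h replicate 2.

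Of 25 XTH genes, whose enzymes cut and rejoin xyloglucan in the wall, 4 were called lower and 0 higher. XTH17 had 1.24, 1.24 and 1.4 FPKM at 8 h, against 35.7, 37.7 and 10.2 FPKM at 4 h, and fell by 4.36 on the log2 scale (SE 0.65, edgeR adjusted p = 0.000968). XTH18, a close copy, had 6.94, 15.8 and 8.77 FPKM at 8 h, against 87.5, 92.0 and 29.0 FPKM at 4 h, and both had mostly fractional counts. Of 22 expansins, which loosen walls, 3 were called higher (1.9% of all genes tested were) and 0 lower. EXPA9 had 17, 14.3 and 29.7 FPKM at 8 h, against 7.65, 8.62 and 6.35 FPKM at 4 h (log2 fold change 1.49 ± 0.42, adjusted p = 0.0319). That count lay between 0 and 4 when a library was left out: 0 without 4 h replicate 2, and 1 without any one of 4 h replicates 1 and 3 and 8 h replicates 1 and 3.

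Most members of hormone and stress lists were not called, as was true of all genes tested (3.57% were called). In some of these lists all those tested lay lower at 8 h. Of 62 SAUR genes, which auxin induces, 2 were called higher and 2 lower, and of 28 Aux/IAA repressors of auxin signalling 1 was called in each direction. Over all genes tested, 1.9% were called higher and 1.67% lower. None of 9 jasmonate and wound response genes was called by edgeR or limma-voom and 1 was called lower by DESeq2, with 5 lower and none higher at an unadjusted p under 0.05 in edgeR's test. BR6OX1, which makes brassinosteroids, had 0.12, 0.08 and 0 FPKM at 8 h, against 0.50, 0.69 and 1.01 FPKM at 4 h (log2 fold change -3.30 ± 0.84, edgeR adjusted p = 0.0203). GA2OX1, which inactivates gibberellins, had 0.61, 0.30 and 0.57 FPKM at 8 h, against 3.36, 3.70 and 5.55 FPKM at 4 h (log2 fold change -3.01 ± 0.44, adjusted p = 0.000858). DFL1, an enzyme that conjugates auxin, had 64.4, 115 and 70.3 FPKM at 8 h, against 328, 252 and 226 FPKM at 4 h (log2 fold change -1.62 ± 0.30, adjusted p = 0.00397). Of 7 cytokinin response regulators, 2 were called lower, ARR5 and ARR6, which fell by 1.22 and 1.07 on the log2 scale. None of the 7 was above 0, the median was -0.52, and 3 were lower past the adjusted p alone. Of 7 wax genes, 2 were called lower, CER1 and KCS1, which fell by 1.38 and 1.16. None of these 7 was above 0 either, with a median of -0.73 and 3 lower past the adjusted p alone (4.85% of all genes tested were). TCH3, a touch-induced calmodulin-like protein, had 13.3, 28.7 and 14.2 FPKM at 8 h, against 89.3, 152 and 108 FPKM at 4 h (log2 fold change -2.55 ± 0.49, adjusted p = 0.00458). WRKY33, a defence regulator, had 16.5, 21.4 and 16.9 FPKM at 8 h, against 40.01, 65.3 and 57.4 FPKM at 4 h. It was 1 of 3 genes called lower among 58 WRKY factors (1.67% of all genes tested were), with 0 higher. MYB75, the anthocyanin regulator, fell by 3.16 on the log2 scale (SE 0.89, adjusted p = 0.0317), at 0.44, 0 and 0.77 FPKM at 8 h, against 1.17, 3.11 and 6.96 FPKM at 4 h. It was the called gene of 21 in the flavonoid list. AT4G31875, which codes for a hypothetical protein, had no count in any 8 h library and 5.54, 2.84 and 7.54 FPKM at 4 h, at least 28.1-fold lower by a floor of 3 counts per library; its counts were mostly fractional.

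Genes used as references lay close to 0. None of 8 was called by edgeR, DESeq2 or limma-voom and none passed edgeR's adjusted p alone (1 was higher at an unadjusted p under 0.05). The median was 0.06 and the range -0.20 to 0.35. Neither were any of 6 root, 10 stomatal lineage or 8 secondary wall markers called by these tools or past edgeR's adjusted p alone. Of all genes tested, edgeR called 3.57%, so few calls would fall in lists of these sizes. At an unadjusted p under 0.05 there were 3 stomatal lineage genes higher and no others of these markers. Their summed levels were 191 to 457 FPKM at 8 h and 155 to 289 FPKM at 4 h for the root list, 18.1 to 34.4 FPKM at 8 h and 18.1 to 26.7 FPKM at 4 h for the stomatal list, and 65.5 to 93.5 FPKM at 8 h and 49.9 to 99.8 FPKM at 4 h for the secondary wall list, so the groups overlapped in each.

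**Figure D4:**
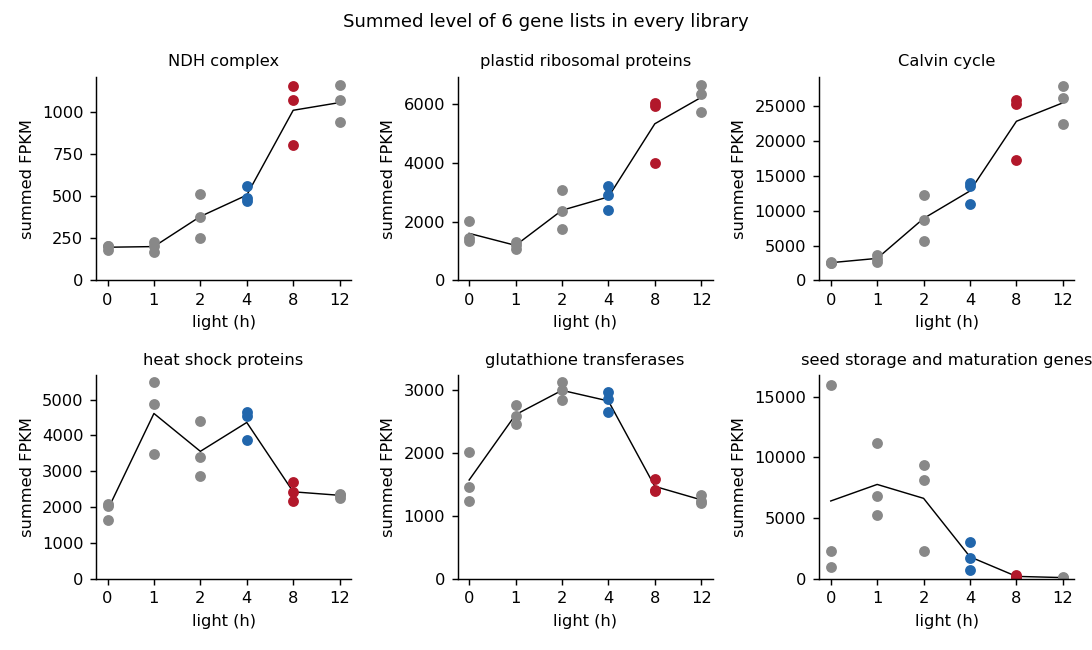
Summed FPKM of 6 gene lists in each library over hours of light (points; 8 h red, 4 h blue, other times grey), with the line joining the means of 3 libraries. The 3 chloroplast lists lie higher at 8 h and 12 h than at earlier times; the heat shock list lies high at 1 to 4 h and low at 0, 8 and 12 h.

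The called genes were then followed in libraries outside the comparison of 8 h with 4 h. Through the single fit of all 18 libraries, these also shaped the filter and the estimate of spread behind its calls. The shares called below are therefore not independent of the calls in that comparison. At 12 h against 2 h, which shares no library with it, 296 of the 391 genes higher at 8 h were called higher (75.7%, against 7.7% of all genes tested) and 5 were called lower. Of the 343 lower at 8 h, 243 were called lower (70.8%, against 12.2%) and 2 higher. At 12 h against 1 h, 316 of the higher genes were called higher (80.8%, against 14.7%), and 177 of the lower genes were called lower (51.6%, against 8.33%) with 9 higher. Many of the lower genes had been raised early: 70 of them (20.4%) were called higher at 1 h against 0 h, against 3.66% of all genes tested, and 15 (4.37%) were called lower there, against 2.09%. The time of the highest mean FPKM was taken over all 6 groups, which include the 8 h and 4 h libraries that made the calls. Of the 391 higher genes, 232 had their highest level at 12 h and 125 at 8 h. Of the 343 lower genes, 133 had it at 2 h, 119 at 4 h, 62 at 1 h and 29 in the dark. The call itself all but excludes a highest level at 4 h for higher genes and at 8 h for lower ones, so these counts are partly fixed by it. They were not counted over all genes tested.

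LHY lay opposite in the other libraries, at -0.63 for 12 h against 2 h (edgeR adjusted p = 0.026, below the fold limit), whereas CCA1 was lower there too, at -1.5 (adjusted p = 5.88e-05). ELI3-2, a cinnamyl alcohol dehydrogenase among the 12 lowest at 8 h (log2 fold change -3.81), was called higher at 12 h against 2 h (2.41, adjusted p = 0.0381). CYCB2;3, a B-type cyclin that rose by 1.05 at 8 h, was called lower at 12 h against 2 h (-1.07, adjusted p = 0.00616).

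**Figure D5:**
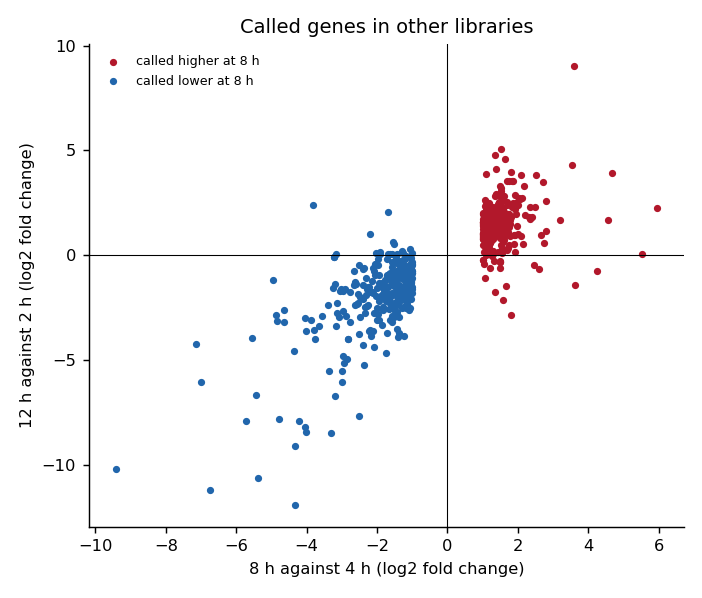
Each point is a gene called at 8 h against 4 h, with that log2 fold change on the horizontal axis and the log2 fold change of 12 h over 2 h, from other libraries, on the vertical axis. Of the 391 genes called higher (red), 372 lie above 0 on the vertical axis, and of the 343 called lower (blue), 17 do.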

How the data were processed

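Per the file headers, the deposited gene tables hold the authors' expected count and FPKM of each gene in each library. The submitters' processing notes name RSEM, Bowtie2 and HISAT2, with no role or version; strand setting and genome build are not given in the sources used here. Gene coordinates in the tables equalled those of TAIR10.1 (RefSeq) in 24745 of 24746 genes, and sequences were read from that genome. Genes not listed in a library were set to 0.

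Expected counts were rounded and fitted with edgeR 4.0.16 (R 4.3.3): filterByExpr, TMM factors and a single quasi-likelihood fit of all 18 libraries by their 6 groups (12 residual degrees of freedom, common biological coefficient of variation 0.218). The fit was tested on simulated data. A standard error is the log2 fold change divided by the square root of F, an approximation. FPKM is not TMM-scaled. No libraries were identical, and replicates differed by more than counting noise. About 78.0% to 78.9% of listed genes had whole counts (within 0.005). Genes with mostly fractional counts or overlapping another locus are uncertain (251 of the 734 called). Besides the genes so marked above, PRIN2, PSBC, BOA, LNK2, PGK1, LUT5, PNSL2 and NDHN are among those with both traits. Alternatives included DESeq2 1.42.0, limma-voom (limma 3.58.1), other scalings and filters, and leaving out each library.

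Named genes were the 12 highest and 12 lowest called genes with no overlap and a mean of at least 5 FPKM, the 6 largest FPKM gains and losses among called genes, and up to 4 called genes per list (all members of the NDH, clock, reference and seed lists were tabulated). The comparison, 47 lists and tests were chosen with earlier results of these data known; 8 more lists, 5 genes and 3 motifs were added after the values had been seen. Of 441 loci listed by name, 425 symbols matched the annotation. Motifs were searched on both strands in 2 windows, 250 bases before the gene start and 300 before the start codon (introns included).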

Additional observations from a re-analysis of the deposited data

How the results depend on the processing

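The 734 calls (391 higher, 343 lower) came to 2349 (1351 and 998) with no fold minimum and 208 (100 and 108) when tested against a log2 fold change of 0.5. Without the 0 h and 2 h groups in the fit 526 were lower. Leaving out 1 library gave 389 to 965 calls, 187 to 596 higher and 191 to 369 lower. Same-numbered 8 h and 4 h libraries did not deviate together (correlations -0.09504, -0.2166 and -0.08779). Deviations from a mean of 3 libraries sum to 0, so these correlations cannot decide whether the numbers pair the samples. The replicate block gave 701 calls over 18 libraries, and 482 (226 higher, 256 lower) with only the 6 libraries. The other counts, with DESeq2 (938), limma-voom (677), the 6 libraries without a block (868) and other scalings and filters, were within 1.5 times, and no called gene changed sign. The counts at 12 h against 2 h or 1 h were within 1.5 times under each alternative run for them. Of the values of named genes, 2693 kept their side of the threshold, 321 lost the call and 53 gained it; of the list counts, 232 stayed within 1.5 times, 59 were lower and 15 higher. The causes were not tested. In the lists whose members were called in 1 direction, limma-voom called no gene the other way, and DESeq2 called 1 each among ERF factors, GH3 genes, calmodulin-like proteins, chlorophyll synthesis, cold and abscisic acid response, and flavonoid genes; at an unadjusted p under 0.05, 15 of these 33 lists held 1 to 4 genes the other way. Depth limits the low genes: BR6OX1 had 5, 3 and 0 counts in the 8 h libraries and MYB75 had 11, 0 and 17.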
